A study of Saccharomyces cerevisiae with 12 samples.

Results

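The 32 genes described here make, modify, store and move the sterols of budding yeast (Saccharomyces cerevisiae). They were chosen by name: every gene probe whose symbol in the array annotation is a gene of the mevalonate pathway, of ergosterol synthesis, of sterol regulation, or of sterol esterification, import or export. All 32 were on the array, among 6388 gene probes, of which 5326 carry a symbol. They comprise 9 genes of the mevalonate pathway, 13 genes that turn farnesyl diphosphate into ergosterol, 3 partners of these enzymes, 2 transcriptional regulators and 5 genes of esterification, import and export.

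Ergosterol is the main sterol of the yeast plasma membrane and the counterpart of cholesterol in animals. The mevalonate pathway builds isoprenoid units from acetyl-CoA, farnesyl diphosphate is joined to squalene, and squalene is closed into lanosterol and trimmed to ergosterol in steps that need oxygen and heme. Cells match synthesis to need through the zinc-cluster activators Upc2 and Ecm22, which bind sterol and act on many ERG genes, and they store spare sterol as esters in lipid droplets.

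The study measured transcripts on 12 two-colour microarrays, 2 for each of 6 groups, to ask how the TBP regulators Mot1 and NC2 cooperate in transcription. Mot1 is an ATPase that strips the TATA-binding protein (TBP) from DNA, and NC2β, the product of NCB2, is a subunit of a complex that holds TBP on DNA. Each group is 2 cultures, a and b, grown from separate colonies. Each array set 1 culture against a common reference, RNA of the wild-type strain without rapamycin, with culture a in Cy3 and culture b in Cy5.

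The groups were strain YGP200, in which Mot1 carries the FRB tag, with rapamycin at 1 µg/ml for 60 min and without it; strain YGP201, in which NC2β carries the tag, with and without rapamycin; and the untagged strain HHY168, called wild type, with and without rapamycin. All were grown in synthetic medium with 2% glucose. The FRB tag comes from the human mTOR kinase and binds rapamycin together with FKBP12. This is the basis of anchor-away: the drug ties the tagged factor to a ribosomal subunit protein that carries FKBP12, and the factor leaves the nucleus as ribosomes are exported. As background, hosts of this kind carry a rapamycin-resistant Tor1 and lack the gene for their own FKBP12. The wild type thus shows what rapamycin does without a tagged protein. Depletion acts on the protein, so the transcripts of MOT1 and NCB2 do not check it. The MOT1 probe read 1.77 and 1.88 in rapamycin-treated Mot1-FRB, against 0.78 and 0.69 without (difference 1.09, adjusted p = 5.57e-05). The NCB2 probe read 0.14 and -0.21 in rapamycin-treated NCB2-FRB, against -0.54 and -0.81 without (difference 0.64, adjusted p = 0.0181). MOT1 rose in NCB2-FRB as well (1.07, adjusted p = 4.17e-05) and NCB2 in Mot1-FRB (0.78, adjusted p = 0.0078), and neither had an unadjusted p under 0.05 in wild type. In untreated NCB2-FRB the NCB2 level was 0.65 below that of untreated wild type, short of the threshold over all probes (unadjusted p = 0.00512).

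All values below are log2 ratios of culture over reference, or differences between such ratios, with the standard error (SE) of a limma fit over the 12 arrays (n = 2 per group). Calls are limma tests at a Benjamini-Hochberg adjusted p under 0.05 over all 6388 probes. Some fits below leave out 1 array, which leaves 1 group with a single dye orientation. A call lost in such a fit does not separate the culture from the dye. The culture signal exceeded its background by a median factor of 8.23 to 21.6 on 11 arrays, but by 1.70 for rapamycin-treated wild-type culture a. On that array 71.3% of probes lay above the blank spots, against 95.6% to 99.5% on the others. Its median signal of 69.7 is close to the offset of 50 added during background correction, which draws its ratios toward 0. ERG10, ERG24, ERG26 and UPC2 were not above the blanks there. All members were above the blanks on the other 11 arrays. Only ERG20 and ERG25 were saturated, each on 1 of the 2 arrays of rapamycin-treated NCB2-FRB (culture b).

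Genes of sterol synthesis rose with rapamycin in both tagged strains. In Mot1-FRB, 16 of the 32 genes rose and 1 fell, against 22.0% of all probes higher and 15.3% lower. In NCB2-FRB, 27 rose and 2 fell, against 22.8% of all probes higher and 18.2% lower. The median log2 difference of the 32 genes was 0.36 in Mot1-FRB and 0.64 in NCB2-FRB, beside 0.0097 and -0.0061 over all probes. In wild type 0 of the 32 genes changed, with 0% of all probes called by limma. Their differences there ran between -0.16 and 0.15, and 0 had an unadjusted p under 0.05. With the culture letter as a replicate block, 25 rose and 2 fell in Mot1-FRB, against 33.9% of all probes higher and 28.5% lower in that fit. In NCB2-FRB the block kept the 27 that rose and the 2 that fell, and added UPC2 as lower. Of all 6388 probes, 2032 were higher and 1967 lower in NCB2-FRB in that fit. With median centring in place of loess no gene of the set was called in Mot1-FRB and 10 were in NCB2-FRB. With median centring and the block together, 76 of the 81 calls of members over all comparisons were kept.

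Among the 22 enzymes of the mevalonate and ergosterol pathways, 12 rose in Mot1-FRB and 21 in NCB2-FRB, and none fell in either. The mean log2 ratio of the 22 enzymes was 0.49 and 0.59 in rapamycin-treated Mot1-FRB cultures a and b, against 0.18 and 0.22 in untreated ones. It was 0.67 and 0.79 in rapamycin-treated NCB2-FRB, against 0.06 and 0.13 in untreated NCB2-FRB. In wild type it was -0.02 and 0.08 with rapamycin, against -0.0018 and 0.07 without. The treated and untreated cultures were apart in both tagged strains and overlapped in wild type.

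**Figure D1:**
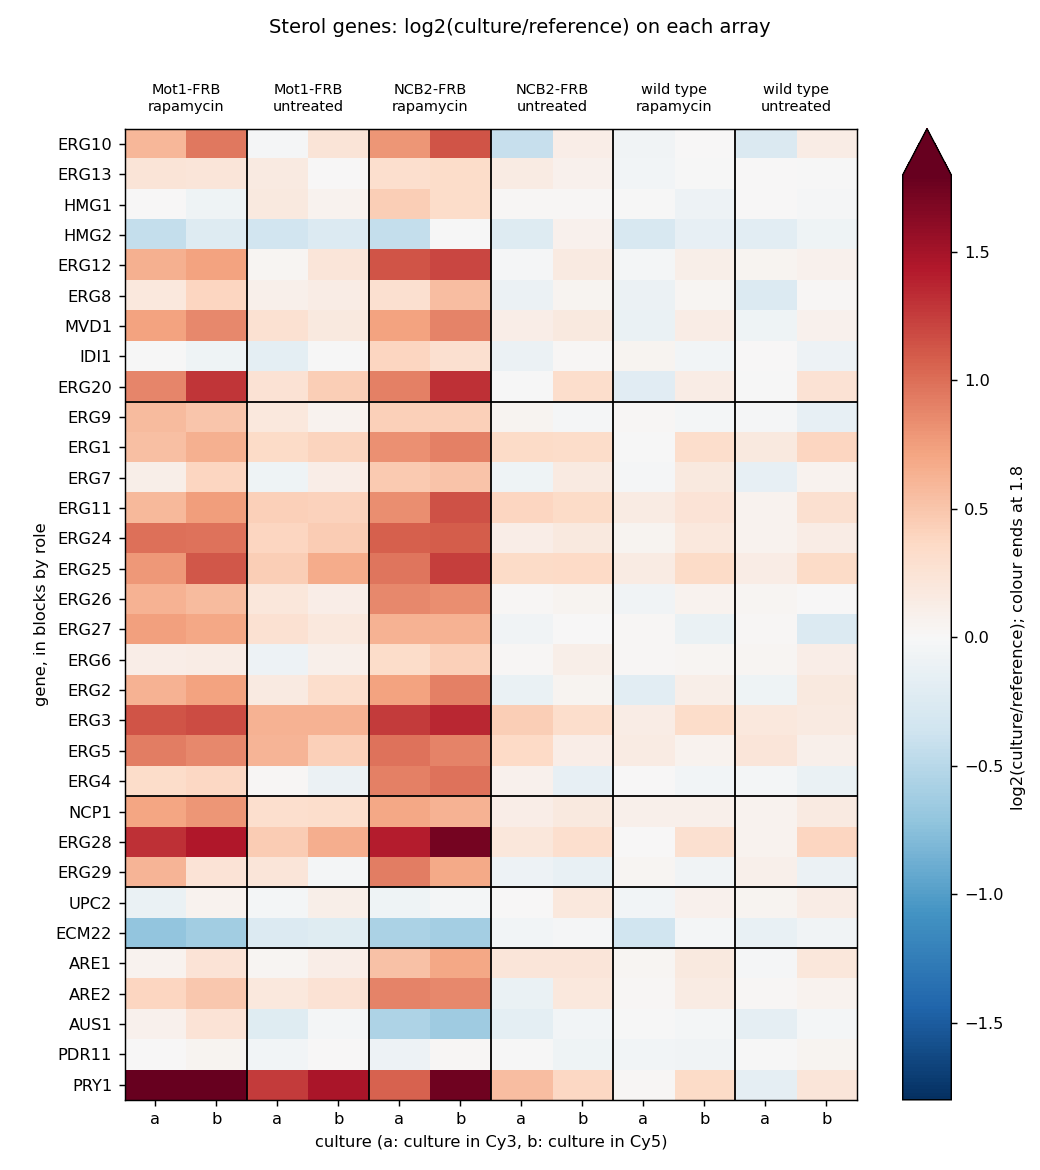
Log2 ratio of culture over reference for each of the 32 genes (rows, in blocks by role) on each of the 12 arrays (columns), on a colour scale that ends at 1.8. The columns of both rapamycin-treated tagged strains are red over most enzymes, with ECM22 blue in both and AUS1 blue in NCB2-FRB; PRY1 reads 2.19 and 2.69 in rapamycin-treated Mot1-FRB, beyond the colour scale.

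The early mevalonate pathway rose in part in Mot1-FRB and nearly throughout in NCB2-FRB. Of its 9 genes, 4 rose in Mot1-FRB (ERG10, ERG12, MVD1 and ERG20) and 8 rose in NCB2-FRB, all but HMG2. ERG12, which encodes mevalonate kinase, read 0.63 and 0.72 in rapamycin-treated Mot1-FRB cultures a and b, against 0.03 and 0.22 in untreated ones. The ERG12 ratios in NCB2-FRB were 1.13 and 1.20 with rapamycin, against -0.02 and 0.16 without. In wild type it read -0.04 and 0.11 with rapamycin and 0.05 and 0.08 without. The treated cultures of both tagged strains lay above every other culture, and those of NCB2-FRB were the highest. The log2 difference was 0.55 ± 0.09 in Mot1-FRB (adjusted p = 0.00137) and 1.09 ± 0.09 in NCB2-FRB (adjusted p = 3.23e-05).

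ERG10, for the acetyl-CoA thiolase that opens the pathway, read 0.59 and 0.95 in rapamycin-treated Mot1-FRB, against -0.02 and 0.23 in untreated Mot1-FRB. The ratios in NCB2-FRB were 0.79 and 1.13 with rapamycin, against -0.41 and 0.11 without. Treated and untreated cultures did not overlap in either strain, although replicate cultures lay well apart, the b culture being the higher in every group. ERG10 rose by 0.67 ± 0.21 in Mot1-FRB (adjusted p = 0.0334) and by 1.11 ± 0.21 in NCB2-FRB (adjusted p = 0.00271). The call in Mot1-FRB was lost without untreated culture a (0.54), untreated culture b (0.79) or rapamycin culture b (0.49). Within a letter, and so within a dye orientation, the Mot1-FRB difference was 0.61 for a and 0.72 for b.

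ERG20, for farnesyl diphosphate synthase, read 0.88 and 1.28 in rapamycin-treated Mot1-FRB, against 0.26 and 0.44 in untreated Mot1-FRB. Treated NCB2-FRB read 0.90 and 1.32, with the spots of culture b saturated, against -0.01 and 0.31 without rapamycin. In both strains the b culture, labelled in Cy5, was the higher one with and without rapamycin. ERG20 rose by 0.73 ± 0.20 in Mot1-FRB (adjusted p = 0.0174) and by 0.96 ± 0.20 in NCB2-FRB (adjusted p = 0.00407). In Mot1-FRB the call was lost without untreated culture a (0.64, adjusted p = 0.0965) or rapamycin culture b (0.53, adjusted p = 0.122). MVD1, for the decarboxylase that makes isopentenyl diphosphate, read 0.72 and 0.86 in rapamycin-treated Mot1-FRB, against 0.27 and 0.18 without rapamycin. Its ratios in NCB2-FRB were 0.73 and 0.89 with rapamycin, against 0.12 and 0.18 without. It rose by a like amount in both strains, 0.57 ± 0.10 in Mot1-FRB (adjusted p = 0.00233) and 0.66 ± 0.10 in NCB2-FRB (adjusted p = 0.000898).

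Of the paired genes for HMG-CoA reductase, the main control point of the pathway, HMG1 rose in NCB2-FRB and HMG2 was called in neither strain. HMG1 encodes the isozyme that carries most activity in aerobic cells, and HMG2 the one that is degraded under feedback. HMG1 read 0.45 and 0.33 in rapamycin-treated NCB2-FRB, against 0.02 in both untreated cultures of NCB2-FRB, and rose by 0.37 ± 0.07 (adjusted p = 0.00229). In Mot1-FRB it read 0.0038 and -0.075 with rapamycin, against 0.18 and 0.06 without, so that the treated cultures lay just below the untreated ones. That difference of -0.16 ± 0.07 missed the threshold (adjusted p = 0.103), but passed it with the replicate block (adjusted p = 0.0114), with print-tip loess (-0.21, adjusted p = 0.0383) and with the authors' deposited ratios (-0.23, adjusted p = 0.00238). HMG2 differed by -0.04 ± 0.15 in Mot1-FRB and -0.14 ± 0.15 in NCB2-FRB, and passed in neither, although the NCB2-FRB difference passed with the authors' deposited ratios (-0.23, adjusted p = 0.0393). Its ratio was below 0 on 11 of the 12 arrays, reaching 0.07 in untreated NCB2-FRB culture b.

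ERG13, ERG8 and IDI1 were called in NCB2-FRB and, without the replicate block, not in Mot1-FRB. In Mot1-FRB ERG13 differed by 0.14 (adjusted p = 0.115) and ERG8 by 0.17 (adjusted p = 0.295). Both passed there with the replicate block (adjusted p = 0.0371 and 0.0256). ERG13, for HMG-CoA synthase, rose by 0.21 ± 0.06 in NCB2-FRB (adjusted p = 0.0292), and this call was lost without any 1 of the 4 NCB2-FRB arrays, with values of 0.17 to 0.25. ERG8, for phosphomevalonate kinase, rose by 0.45 ± 0.12 (adjusted p = 0.0163) and was not called without untreated culture a (0.36) or rapamycin culture b (0.32) of that strain. IDI1 encodes the isomerase of isopentenyl diphosphate. It read 0.38 and 0.29 in rapamycin-treated NCB2-FRB, against -0.11 and 0.03 without, and rose by 0.38 ± 0.08 (adjusted p = 0.00539). This rise depended on the normalization. With loess within print tips the difference was 0.10 (adjusted p = 0.36), and with the authors' deposited ratios it was -0.09 (adjusted p = 0.333). In Mot1-FRB the IDI1 difference was 0.05 ± 0.08 (adjusted p = 0.663), but -0.34 with print-tip loess (adjusted p = 0.00823) and -0.32 with the authors' deposited ratios (adjusted p = 0.0047).

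**Figure D2:**
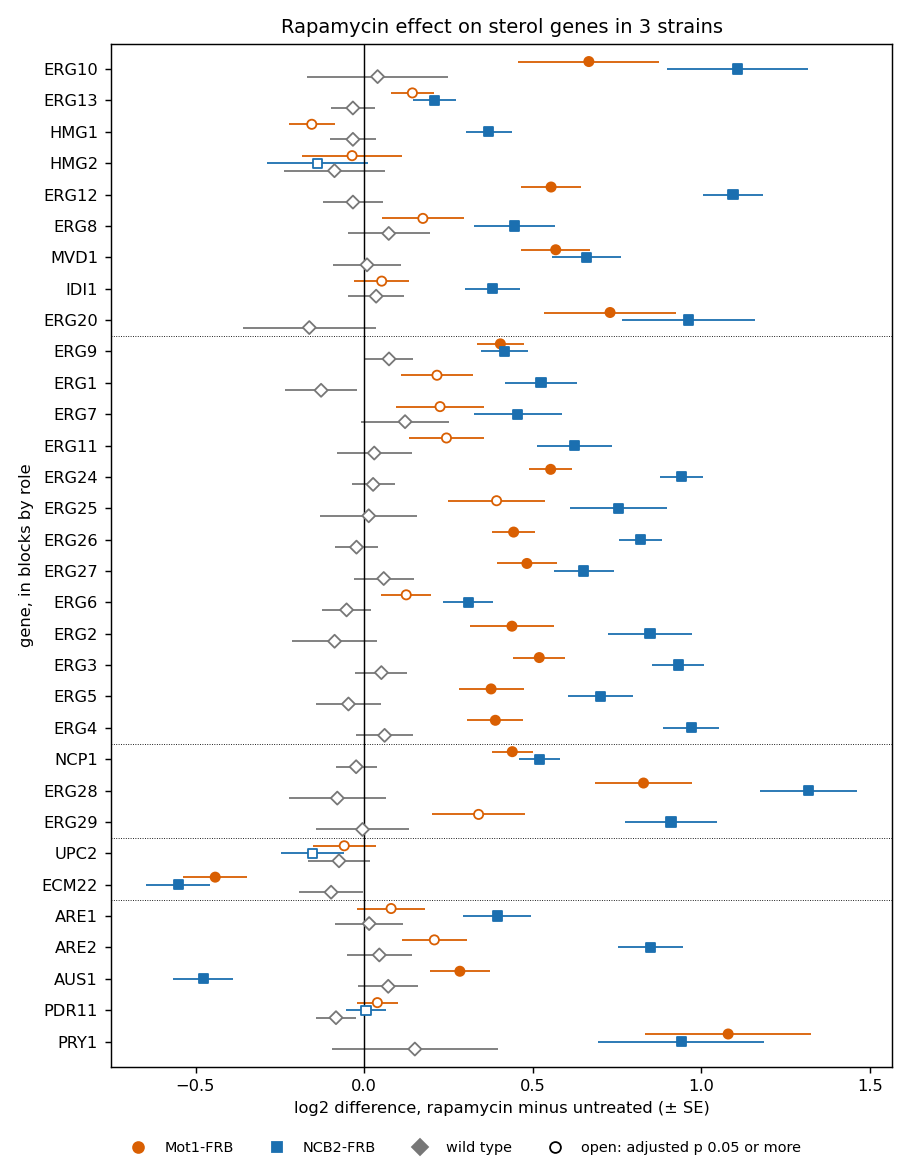
Log2 difference between rapamycin-treated and untreated cultures, with its SE, for each gene (rows) in Mot1-FRB (circles), NCB2-FRB (squares) and wild type (diamonds); filled symbols passed the limma test. The squares lie right of the circles for most enzymes, the diamonds lie within -0.16 and 0.15, and AUS1 is filled on opposite sides of 0 (0.28 in Mot1-FRB, -0.48 in NCB2-FRB).

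All 13 genes from squalene synthase to the last step of ergosterol synthesis rose in NCB2-FRB, and 8 of them rose in Mot1-FRB. Their differences ran from 0.31 to 0.97 in NCB2-FRB with a median of 0.70, and from 0.12 to 0.55 in Mot1-FRB with a median of 0.39. The 5 without a call in Mot1-FRB were ERG1, ERG7, ERG11, ERG25 and ERG6. All 5 passed there with the replicate block, ERG6 at an adjusted p of 0.0477 and the others between 0.000811 and 0.0258.

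ERG9, for squalene synthase at the branch toward sterols, rose alike in both tagged strains. It read 0.57 and 0.50 in rapamycin-treated Mot1-FRB, against 0.19 and 0.06 without. NCB2-FRB read 0.43 on both arrays with rapamycin, against 0.05 and -0.02 without. The log2 differences were 0.40 ± 0.07 (adjusted p = 0.00201) and 0.42 ± 0.07 (adjusted p = 0.00146). ERG1 encodes squalene epoxidase, the target of terbinafine, and ERG7 lanosterol synthase. ERG1 rose by 0.52 ± 0.11 in NCB2-FRB (adjusted p = 0.00403), against 0.14 (adjusted p = 0.246) with the authors' deposited ratios. ERG7 rose by 0.46 ± 0.13 there (adjusted p = 0.0203), and lost the call without untreated culture a (0.33), rapamycin culture a (0.47) or rapamycin culture b (0.44). In Mot1-FRB the differences were 0.22 ± 0.11 for ERG1 and 0.23 ± 0.13 for ERG7.

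ERG11, for the lanosterol demethylase that azole drugs inhibit, read 0.84 and 1.14 in rapamycin-treated NCB2-FRB, against 0.39 and 0.34 without. Mot1-FRB read 0.59 and 0.75 with rapamycin, against 0.44 and 0.42 without. Neither pair overlapped. ERG11 rose by 0.62 ± 0.11 in NCB2-FRB (adjusted p = 0.002) and differed by 0.24 ± 0.11 in Mot1-FRB (adjusted p = 0.117). ERG24, for the reductase that follows it, read 0.98 and 0.97 in rapamycin-treated Mot1-FRB, against 0.39 and 0.46 without, and 1.08 and 1.09 in rapamycin-treated NCB2-FRB, against 0.11 and 0.17 without. It rose by 0.55 ± 0.06 in Mot1-FRB (adjusted p = 0.000218) and by 0.94 ± 0.06 in NCB2-FRB (adjusted p = 1.25e-05).

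ERG25, ERG26 and ERG27 encode the enzymes that together strip methyl groups from the sterol ring, a methyl oxidase, a decarboxylase and a keto reductase. ERG26 read 0.63 and 0.57 in rapamycin-treated Mot1-FRB, against 0.20 and 0.11 without, and rose by 0.44 ± 0.06 (adjusted p = 0.000675). Its NCB2-FRB ratios were 0.87 and 0.83 with rapamycin, against 0.02 and 0.05 without, and rose by 0.82 ± 0.06 (adjusted p = 2.2e-05). ERG27 rose by 0.48 ± 0.09 in Mot1-FRB (adjusted p = 0.00278) and 0.65 ± 0.09 in NCB2-FRB (adjusted p = 0.000465). ERG25 rose by 0.75 ± 0.14 in NCB2-FRB (adjusted p = 0.00283), where it was saturated on 1 of the 2 treated arrays, and its difference of 0.39 ± 0.14 in Mot1-FRB missed the threshold (adjusted p = 0.059).

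The late steps ran the same way. ERG6, for the methyltransferase that sets ergosterol apart from cholesterol, changed least, by 0.31 ± 0.07 in NCB2-FRB (adjusted p = 0.00895), and was not called without untreated culture a (0.27) or rapamycin culture b (0.26). ERG2, for the sterol isomerase, rose by 0.85 ± 0.13 in NCB2-FRB (adjusted p = 0.000734) and by 0.44 ± 0.13 in Mot1-FRB (adjusted p = 0.0228). In Mot1-FRB the call was lost without untreated culture a (0.36), rapamycin culture a (0.48) or rapamycin culture b (0.39). ERG5, for a desaturase of the cytochrome P450 class, rose by 0.70 ± 0.10 in NCB2-FRB (adjusted p = 0.000469) and by 0.38 ± 0.10 in Mot1-FRB (adjusted p = 0.0137), where the call was lost without untreated culture b (0.28) or rapamycin culture a (0.35).

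ERG3 and ERG4 encode another desaturase and the reductase of the last step. ERG3 read 1.13 and 1.17 in rapamycin-treated Mot1-FRB, against 0.62 and 0.63 without, and 1.27 and 1.36 in rapamycin-treated NCB2-FRB, against 0.44 and 0.32 without. It rose by 0.52 ± 0.08 in Mot1-FRB (adjusted p = 0.00088) and by 0.93 ± 0.08 in NCB2-FRB (adjusted p = 3.36e-05). ERG4 read 0.90 and 0.97 in rapamycin-treated NCB2-FRB, against 0.08 and -0.15 without, and rose by 0.97 ± 0.08 (adjusted p = 3.92e-05). Its Mot1-FRB ratios were 0.33 and 0.37 with rapamycin, against 0.03 and -0.10 without, and rose by 0.39 ± 0.08 (adjusted p = 0.00578). In NCB2-FRB the ERG4 treated cultures lay above all other cultures of any strain.

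The partners of the enzymes included the largest rise of the synthesis genes. ERG28 encodes the membrane scaffold that holds the demethylation enzymes together. It read 1.32 and 1.44 in rapamycin-treated Mot1-FRB, against 0.46 and 0.65 without. In NCB2-FRB ERG28 read 1.42 and 1.72 with rapamycin, against 0.20 and 0.30 without, and in wild type 0.01 and 0.28 with rapamycin and 0.06 and 0.39 without. The treated cultures of both tagged strains lay above all others. ERG28 rose by 0.83 ± 0.14 in Mot1-FRB, a fold of 1.78 (adjusted p = 0.00202), and by 1.32 ± 0.14 in NCB2-FRB, a fold of 2.49 (adjusted p = 0.000136).

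NCP1 encodes the reductase that passes electrons to the sterol P450 enzymes. It rose by 0.44 ± 0.06 in Mot1-FRB (adjusted p = 0.000569) and by 0.52 ± 0.06 in NCB2-FRB (adjusted p = 0.000193). ERG29, a small membrane protein needed for normal sterol synthesis, read 0.92 and 0.68 in rapamycin-treated NCB2-FRB, against -0.09 and -0.13 without, and rose by 0.91 ± 0.14 (adjusted p = 0.000804). Mot1-FRB cultures read 0.62 and 0.25 with rapamycin, against 0.21 and -0.03 without. The treated and untreated cultures nearly met, and the difference of 0.34 ± 0.14 missed the threshold (adjusted p = 0.0823) but passed with the replicate block (adjusted p = 0.00257).

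The regulators among the members, UPC2 and ECM22, did not rise with the enzymes. Outside the members, the regulator gene HAP1 rose in both tagged strains and MOT3 rose in NCB2-FRB, as given below. UPC2 encodes the activator that drives ERG genes when sterol runs low, and ECM22 its close paralog, which is known to sit at ERG genes when sterol is ample. ECM22 read -0.71 and -0.63 in rapamycin-treated Mot1-FRB, against -0.25 and -0.22 without. Its ratios in NCB2-FRB were -0.57 and -0.61 with rapamycin, against -0.05 and -0.02 without. The treated cultures of both tagged strains lay below all the others, wild type included, where it read -0.36 and -0.04 with rapamycin and -0.14 and -0.06 without. ECM22 fell by 0.44 ± 0.09 in Mot1-FRB (adjusted p = 0.00587) and fell by 0.55 ± 0.09 in NCB2-FRB (adjusted p = 0.00163). Leaving out any 1 array kept both calls, the highest adjusted p being 0.037.

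UPC2 differed by -0.06 ± 0.09 in Mot1-FRB (adjusted p = 0.664) and by -0.15 ± 0.09 in NCB2-FRB (adjusted p = 0.223). Its ratios were -0.07 and -0.04 in rapamycin-treated NCB2-FRB, against 0.01 and 0.19 without. The NCB2-FRB difference passed with the replicate block (adjusted p = 0.0175), with print-tip loess (-0.24, adjusted p = 0.00954) and with the authors' deposited ratios (-0.26, adjusted p = 0.00269).

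Storage genes rose in NCB2-FRB. ARE1 and ARE2 encode the acyltransferases that make steryl esters, ARE2 being the main one in aerobic cells. ARE2 read 0.89 and 0.87 in rapamycin-treated NCB2-FRB, against -0.12 and 0.18 without, and rose by 0.85 ± 0.10 (adjusted p = 0.000173). Mot1-FRB cultures read 0.39 and 0.48 with rapamycin, against 0.19 and 0.27 without, a difference of 0.21 ± 0.10 that missed the threshold (adjusted p = 0.123; 0.0249 with the replicate block). ARE1 read 0.53 and 0.69 in rapamycin-treated NCB2-FRB, against 0.22 and 0.21 without, and rose by 0.39 ± 0.10 (adjusted p = 0.0123). That call was lost without untreated culture a (0.40), untreated culture b (0.39) or rapamycin culture b (0.31). In Mot1-FRB ARE1 differed by 0.08 ± 0.10.

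AUS1 and PDR11 encode the ABC transporters that import sterol, mainly when oxygen is short. AUS1 rose in Mot1-FRB and fell in NCB2-FRB. It read 0.07 and 0.24 in rapamycin-treated Mot1-FRB, against -0.22 and -0.04 without, and rose by 0.28 ± 0.09 (adjusted p = 0.0336). AUS1 in NCB2-FRB read -0.55 and -0.63 with rapamycin, against -0.18 and -0.05 without, and fell by 0.48 ± 0.09 (adjusted p = 0.00258). In wild type it read -0.01 and -0.04 with rapamycin, against -0.16 and -0.03 without. The treated NCB2-FRB cultures lay below all other cultures, and the treated Mot1-FRB cultures above all others. The rise in Mot1-FRB was not called without untreated culture a (0.19, adjusted p = 0.208) or rapamycin culture b (0.20, adjusted p = 0.2), while the fall in NCB2-FRB was called without any 1 array. PDR11 differed by 0.04 ± 0.06 in Mot1-FRB and 0.01 ± 0.06 in NCB2-FRB, and its ratio lay between -0.09 and 0.05 on all 12 arrays.

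PRY1 encodes a secreted sterol-binding protein that exports acetylated sterols. It read 2.19 and 2.69 in rapamycin-treated Mot1-FRB, against 1.26 and 1.46 without. In NCB2-FRB PRY1 read 1.06 and 1.75 with rapamycin, against 0.56 and 0.37 without, and in wild type 0.02 and 0.34 with rapamycin, against -0.16 and 0.21 without. Even the untreated Mot1-FRB cultures were above every untreated culture of the other strains. PRY1 rose by 1.08 ± 0.25 in Mot1-FRB, a fold of 2.11 (adjusted p = 0.00781), and by 0.94 ± 0.25 in NCB2-FRB, a fold of 1.92 (adjusted p = 0.0136). The call in Mot1-FRB was lost without untreated culture a (0.98, adjusted p = 0.0525) or rapamycin culture b (0.83, adjusted p = 0.0617). In NCB2-FRB it was lost without untreated culture b (0.85, adjusted p = 0.0781) or rapamycin culture b (0.59, adjusted p = 0.0917).

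**Figure D3:**
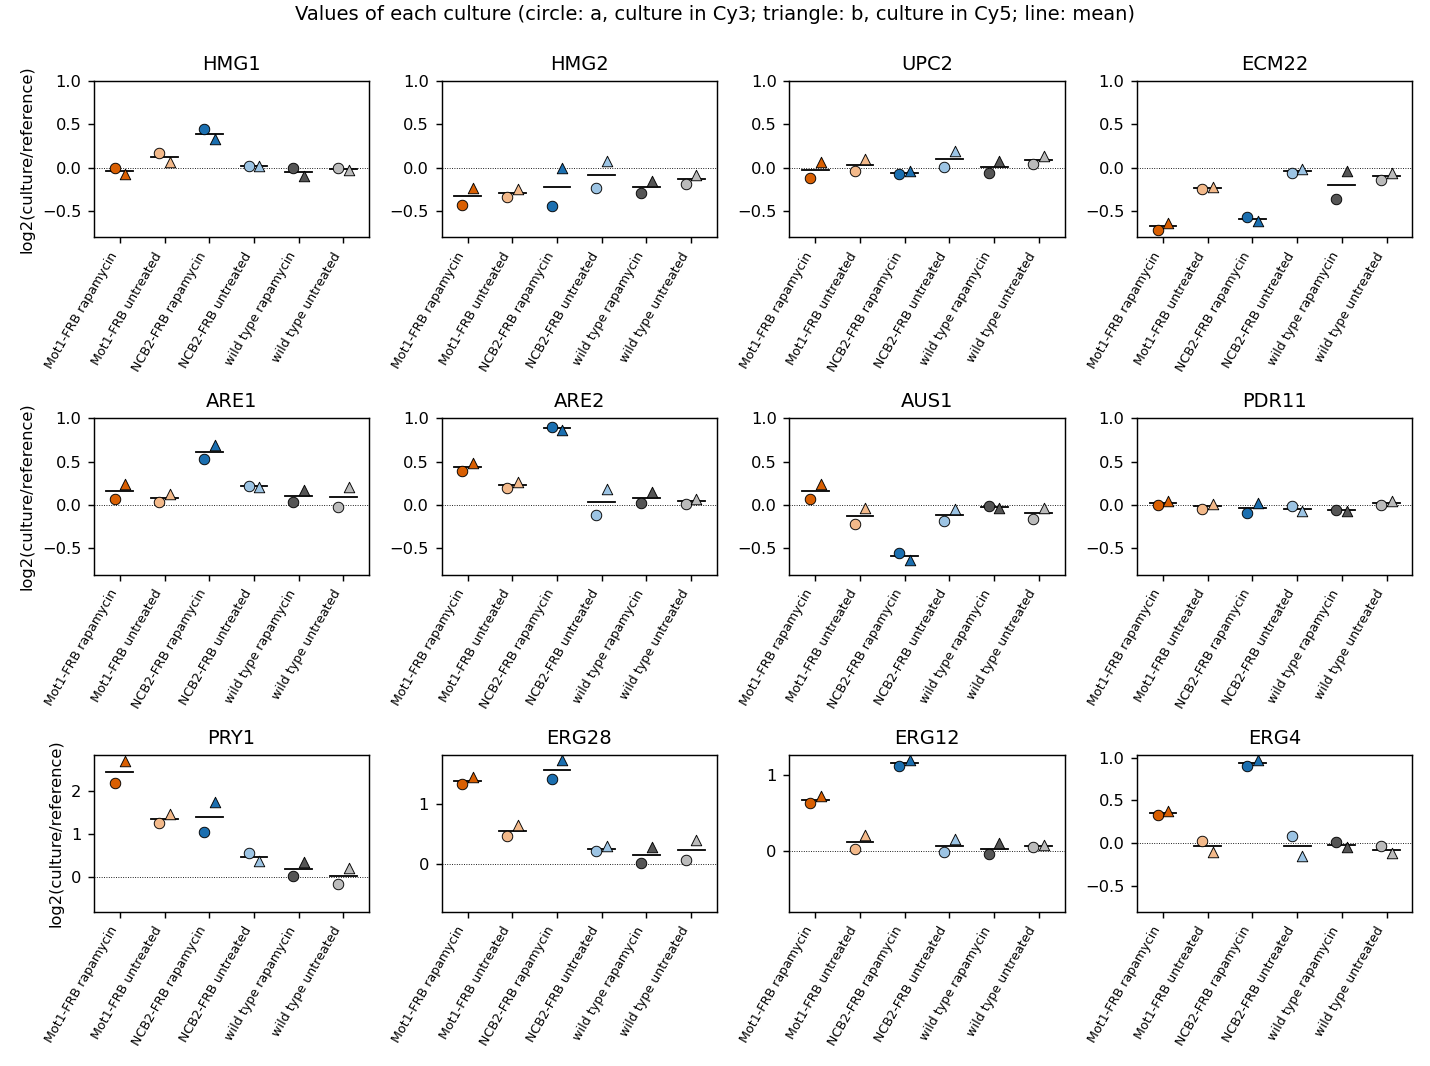
Log2 ratio of culture over reference in each of the 12 cultures for 12 of the genes (circles, culture a in Cy3; triangles, culture b in Cy5; lines, group means), each gene on its own vertical scale. HMG1 and ARE2 stand out in rapamycin-treated NCB2-FRB, ECM22 is lowest in both treated tagged strains, AUS1 reads -0.55 and -0.63 in treated NCB2-FRB, and PRY1 reads 1.26 and 1.46 in untreated Mot1-FRB.

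Some members lie beside other sterol or wall genes in the RefSeq gene table (assembly R64), and these neighbours did not all move with them. PRY1 lies next to PRY3, a related gene of the same family, which differed by 0.22 ± 0.14 in Mot1-FRB (adjusted p = 0.253) and rose by 0.56 ± 0.14 in NCB2-FRB (adjusted p = 0.0121). AUS1 lies next to TIR2, a gene for an anaerobic wall protein, which differed by 0.35 ± 0.21 in Mot1-FRB and 0.27 ± 0.21 in NCB2-FRB, with a call in neither. ERG1 lies next to ATF2, for an enzyme that acetylates sterols before export. ATF2 differed by 0.09 ± 0.12 in Mot1-FRB (adjusted p = 0.583) and rose by 0.47 ± 0.12 in NCB2-FRB (adjusted p = 0.0107).

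Subtracting the wild-type effect of rapamycin left 9 of the 32 genes higher in Mot1-FRB and 0 lower, against 12.7% of all probes higher and 6.70% lower (limma; 16 of the 32 had an unadjusted p under 0.05 in either direction). The 9 were ERG12, MVD1, ERG9, ERG24, ERG26, ERG27, ERG3, NCP1 and ERG28. The greatest of these differences was ERG28 at 0.91 ± 0.20 (adjusted p = 0.0144). Over the 12 fits that each left out 1 array, the call was lost 11 times for ERG27, 10 for ERG9, 5 for ERG3, 5 for MVD1 and 3 for ERG28. Without the dim array of rapamycin-treated wild-type culture a, 5 members were called. The count was likewise 5 without untreated Mot1-FRB culture a, 5 without untreated Mot1-FRB culture b, 6 without untreated wild-type culture a and 4 without rapamycin-treated Mot1-FRB culture b. With the replicate block 18 were higher and 1 was lower, against 25.5% of all probes higher and 19.3% lower in that fit.

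In NCB2-FRB 21 genes were higher and 2 lower after the wild-type effect was subtracted, against 14.5% of all probes higher and 8.95% lower. ERG28 differed by 1.40 ± 0.20 (adjusted p = 0.00172) and ERG12 by 1.13 ± 0.13 (adjusted p = 0.000513). The 2 lower genes were ECM22 at -0.45 ± 0.13 (adjusted p = 0.0385) and AUS1 at -0.55 ± 0.13 (adjusted p = 0.0138). The ECM22 call was lost in 11 of the 12 fits that left out 1 array, where its value ran between -0.61 and -0.29. The AUS1 call was lost without untreated NCB2-FRB culture b (-0.48, adjusted p = 0.0544) or untreated wild-type culture a (-0.48, adjusted p = 0.0515). Without the dim array 17 members were called. Among the higher genes, leaving out 1 array ended the call in 9 of 12 fits for ERG6, 7 for ERG9, 5 each for ERG10, ERG11 and ERG25, 4 for ERG20, 3 for HMG1 and 1 for ERG1. The differences from wild type in the tagged strains share the wild-type arrays.

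The rapamycin effect was higher in NCB2-FRB than in Mot1-FRB for most members, and how many single genes passed the test of that difference turned on the replicate block. The Mot1-FRB effect was below the NCB2-FRB effect in 26 of the 32 genes (81.2%), against 46.5% of all probes, and in 21 of the 22 enzymes. The median difference, Mot1-FRB minus NCB2-FRB, was -0.31 over the 32 genes and 0.012 over all probes. The starting levels also differed. The mean of the 22 enzymes was 0.18 and 0.22 in untreated Mot1-FRB, against 0.06 and 0.13 in untreated NCB2-FRB. With rapamycin it was 0.49 and 0.59 in Mot1-FRB, against 0.67 and 0.79 in NCB2-FRB. Whether the starting level bears on the size of the effect was not tested. Without the block only AUS1 passed the limma test of the difference itself, at 0.76 ± 0.13 (adjusted p = 0.046), against 0.501% of all probes in either direction; 14 of the 32 had an unadjusted p under 0.05. AUS1 lost this call in each of the 12 fits that left out 1 array, with adjusted p up to 0.191 and values of 0.67 to 0.85. The next were HMG1 at -0.53 ± 0.10 (adjusted p = 0.0632), ERG4 at -0.58 ± 0.12 (adjusted p = 0.0773) and ARE2 at -0.64 ± 0.14 (adjusted p = 0.0911).

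With the replicate block the test of this difference called 15 members, AUS1 higher and 14 lower in Mot1-FRB, against 8.56% of all probes higher and 7.81% lower in that fit. The 14 included HMG1 (adjusted p = 0.0025), ERG12 (adjusted p = 0.00339), ARE2 (adjusted p = 0.0051) and ERG4 (adjusted p = 0.00667). ERG9 differed by -0.01 ± 0.10 and NCP1 by -0.08 ± 0.09, and neither passed with or without the block. Across the 32 genes the effects in the tagged strains had a Pearson correlation of 0.78 and a Spearman correlation of 0.83, beside 0.88 and 0.83 across all probes. This is a description over genes measured on the same arrays, and genes are not replicates.

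**Figure D4:**
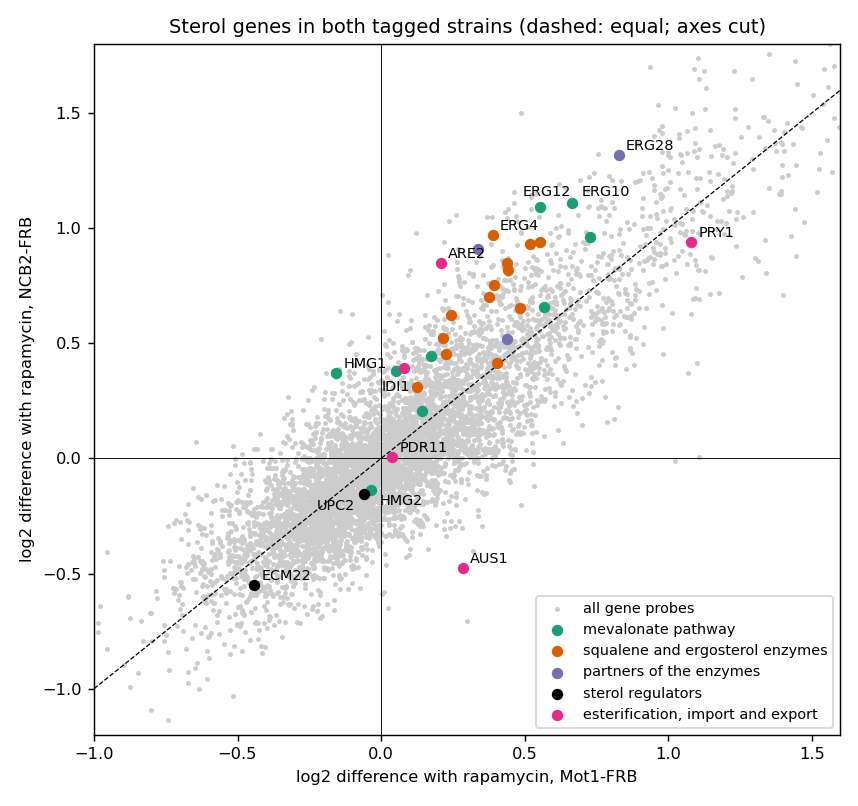
Log2 difference with rapamycin in Mot1-FRB (horizontal) and in NCB2-FRB (vertical) for all gene probes (grey) and for the 32 genes coloured by role; the dashed line marks equal effects and both axes end before the most extreme probes. In 26 of the 32 genes the NCB2-FRB effect is the higher, AUS1 lies lower right of the line (0.28 in Mot1-FRB, -0.48 in NCB2-FRB) and HMG1 upper left of it (-0.16 in Mot1-FRB, 0.37 in NCB2-FRB).

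Without rapamycin the enzymes stood a little higher in Mot1-FRB than in wild type: over the 22 enzymes the median difference was 0.18, with 3 below 0, and over the 32 genes it was 0.15, beside -0.0039 over all probes. In NCB2-FRB the median over the 32 genes was 0.045, beside 0.0025 over all probes. In untreated Mot1-FRB 2 of the 32 genes were higher than in untreated wild type, against 0.861% of all probes higher, and 9 had an unadjusted p under 0.05. They were ERG3, which read 0.62 and 0.63 in Mot1-FRB against 0.20 and 0.16 in wild type, a difference of 0.45 ± 0.08 (adjusted p = 0.0369), and PRY1 at 1.33 ± 0.25, a fold of 2.51 (adjusted p = 0.0457). Leaving out 1 array at a time ended the ERG3 call in 8 of 12 fits, with adjusted p up to 0.268, and the PRY1 call in 10 of 12, with adjusted p up to 0.342. With the replicate block 9 members were called, all higher, against 5.03% of all probes higher in that fit, namely ERG5, ERG9, ERG24, ERG25, ERG27, ERG28 and NCP1 besides these. In untreated NCB2-FRB limma called 0 of the 32 genes against untreated wild type, beside 0.0157% of all probes, and 1 member, ERG3, had an unadjusted p under 0.05 (a difference of 0.20 ± 0.08).

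Other genes around sterol metabolism were counted in 5 further lists, beside the 22.0% of all probes higher and 15.3% lower in Mot1-FRB, and the 22.8% higher and 18.2% lower in NCB2-FRB. Of 18 measured genes of sterol transport and turnover, 4 rose and 1 fell in Mot1-FRB, and 7 rose and 2 fell in NCB2-FRB, so that the share higher in Mot1-FRB was that of all probes. YEH1, for a hydrolase that frees sterol from its esters, read 1.11 on both arrays of rapamycin-treated Mot1-FRB, against 0.49 and 0.44 without, and rose by 0.64 ± 0.09 (adjusted p = 0.000817). YEH1 in NCB2-FRB read 1.32 and 1.36 with rapamycin, against 0.23 and 0.10 without, and rose by 1.17 ± 0.09 (adjusted p = 2.78e-05). PRY2, a relative of PRY1, rose by 0.49 ± 0.17 in Mot1-FRB (adjusted p = 0.048) and by 0.56 ± 0.17 in NCB2-FRB (adjusted p = 0.0271). YSP2, which moves sterol between membranes, rose by 0.62 ± 0.11 in Mot1-FRB (adjusted p = 0.00246) and by 0.50 ± 0.11 in NCB2-FRB (adjusted p = 0.00661). The genes that fell, named after their values were seen, were KES1, for a sterol-binding protein of the oxysterol-binding family, in both strains (-0.27 in Mot1-FRB, -0.24 in NCB2-FRB), and SAY1, for a sterol deacetylase, in NCB2-FRB (-0.30). Genes of the KES1 family went both ways. OSH6 differed by 0.44 and 0.61 (letters a and b) in Mot1-FRB, and by 0.34 and 0.36 in NCB2-FRB. OSH3 differed by -0.26 and -0.15 in Mot1-FRB, and by -0.23 for both letters in NCB2-FRB. YEH2, a relative of YEH1 likewise picked after its values were seen, differed by -0.35 ± 0.12 in Mot1-FRB (adjusted p = 0.0503) and by -0.33 ± 0.12 in NCB2-FRB (adjusted p = 0.0592).

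Among 10 partners and degradation factors of the sterol enzymes, 2 rose in Mot1-FRB, and 3 rose and 1 fell in NCB2-FRB, shares near those of all probes. DAP1, for a heme-binding protein that keeps Erg11 active, rose by 0.98 ± 0.08 in Mot1-FRB (adjusted p = 3.44e-05) and by 1.14 ± 0.08 in NCB2-FRB (adjusted p = 1.25e-05). Its ratios were 0.68 and 0.70 in treated Mot1-FRB against -0.27 and -0.30 without rapamycin, and 0.93 and 0.99 in treated NCB2-FRB against -0.26 and -0.10 without. CYB5, for the cytochrome that feeds electrons to sterol enzymes, rose by 0.67 ± 0.07 in Mot1-FRB (adjusted p = 0.000157) and by 0.74 ± 0.07 in NCB2-FRB (adjusted p = 7.03e-05). HRD3, a part of the ubiquitin ligase that degrades Hmg2, fell by 0.31 ± 0.08 in NCB2-FRB (adjusted p = 0.0147) and differed by -0.075 ± 0.08 in Mot1-FRB.

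Of 8 genes listed for the oxygen and sterol response (regulators and the desaturase gene OLE1), 2 rose in each tagged strain, near the share of all probes. HAP1, for the heme-dependent activator of ERG genes, rose by 0.89 ± 0.08 in Mot1-FRB (adjusted p = 5.07e-05) and by 1.21 ± 0.08 in NCB2-FRB (adjusted p = 1.09e-05). OLE1, which encodes the fatty acid desaturase and is a target of such regulators, rose by 0.91 ± 0.22 in Mot1-FRB (adjusted p = 0.0102) and differed by 0.50 ± 0.22 in NCB2-FRB (adjusted p = 0.101). MOT3, for a repressor of hypoxic and ERG genes, rose by 0.68 ± 0.07 in NCB2-FRB (adjusted p = 0.000106) and differed by 0.02 ± 0.07 in Mot1-FRB (adjusted p = 0.821).

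Of 10 genes that draw isoprenoids off the pathway into other products, 1 rose and 2 fell in Mot1-FRB. In NCB2-FRB 0 rose and 3 fell, and limma gave 5 an unadjusted p under 0.05. The share lower was near that of all probes in Mot1-FRB and above it in NCB2-FRB. After the wild-type effect was subtracted, 1 was lower in each tagged strain, against 6.70% of all probes in Mot1-FRB and 8.95% in NCB2-FRB. RAM1, for the protein farnesyltransferase subunit, fell by 0.66 ± 0.09 in Mot1-FRB (adjusted p = 0.000651) and fell by 0.52 ± 0.09 in NCB2-FRB (adjusted p = 0.00189). BTS1, for geranylgeranyl diphosphate synthase, fell by 0.29 ± 0.07 in Mot1-FRB (adjusted p = 0.00889) and fell by 0.22 ± 0.07 in NCB2-FRB (adjusted p = 0.028). NUS1, for a subunit of the enzyme that starts dolichol synthesis, rose by 0.45 ± 0.13 in Mot1-FRB (adjusted p = 0.0212) and differed by 0.31 ± 0.13 in NCB2-FRB (adjusted p = 0.076).

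Of 8 anaerobic wall genes linked to Upc2, 3 rose in Mot1-FRB and 6 in NCB2-FRB, and none fell in either, with medians of 0.34 and 0.38. Both shares were above those of all probes. After the wild-type effect was subtracted, 1 of the 8 was higher in Mot1-FRB, near the 12.7% of all probes. In NCB2-FRB 2 were then higher, against 14.5% of all probes. The medians of these differences were 0.17 and 0.23. TIR3 rose by 1.30 ± 0.08 in Mot1-FRB (adjusted p = 1.17e-05) and by 0.87 ± 0.08 in NCB2-FRB (adjusted p = 5.22e-05). TIR1, for a related wall mannoprotein, rose by 0.38 ± 0.10 in Mot1-FRB (adjusted p = 0.0123) and by 0.48 ± 0.10 in NCB2-FRB (adjusted p = 0.00345). None of the genes of these 5 lists passed the test for rapamycin in wild type, and none had an unadjusted p under 0.05 there in limma.

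**Figure D5:**
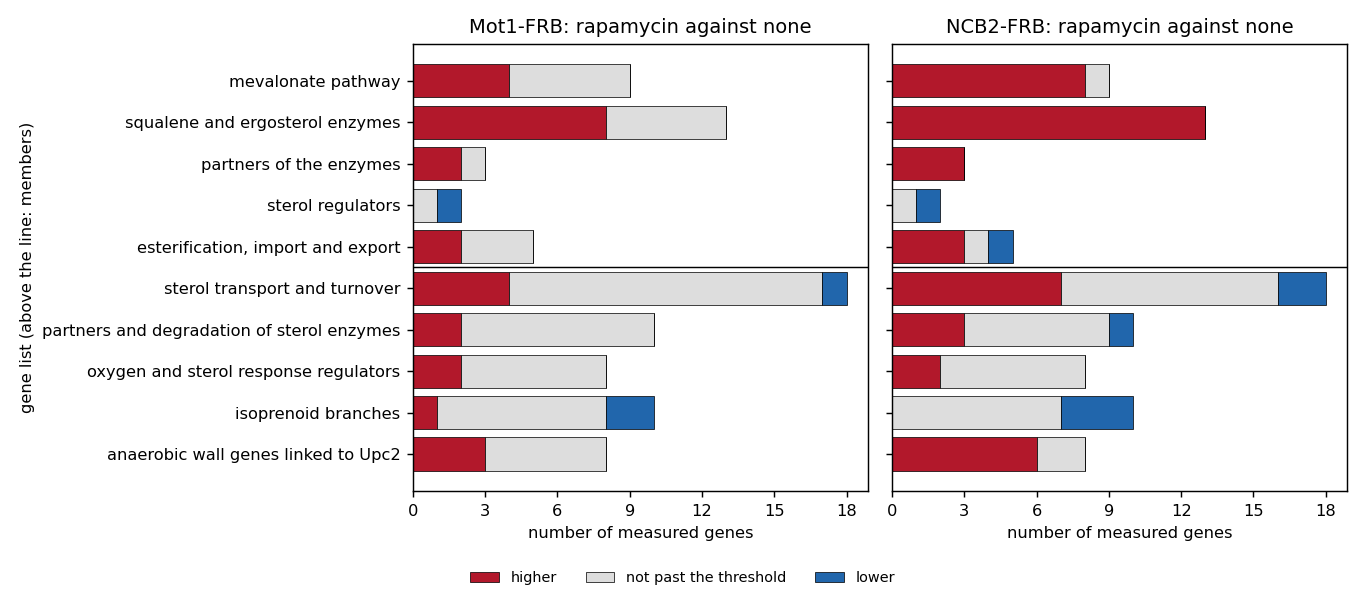
Number of measured genes in each list that were higher, not past the limma threshold, or lower with rapamycin, in Mot1-FRB (left) and NCB2-FRB (right); the 32 genes are the lists above the line. All 13 squalene and ergosterol genes and 8 of 9 mevalonate genes were higher in NCB2-FRB, against 7 of 18 genes of sterol transport and turnover.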

How the data were processed

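Per the labels' protocols, scans came from an Agilent G2565BA instrument and spots were quantified in Imagene. The authors deposited the intensity of signal and background for each spot in both channels, and log2 ratios made by print-tip LOESS (span 0.4) with no background subtraction and corrected for the dye bias of single genes, per the labels' protocols. Here the intensities were used: normexp background correction (offset 50), global loess on the gene spots (span 0.3, 4 iterations), ratios turned to culture over reference, and the 2 spots of a probe averaged. One mean per group was fitted over 12 arrays with limma 3.58.1 in R 4.3.3 (two-sided moderated tests, Benjamini-Hochberg over 6388 probes, 8 comparisons, threshold 0.05). The procedure was also run on simulated data with independent noise on each array. That noise lacked the deviations that arrays of the same letter share in the data, so the run does not cover them. Figures were drawn with matplotlib 3.10.9. The number of arrays limits the precision. P-values measure the spread between cultures from separate colonies, which without the block also holds the dye orientation.

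A probe was above the blanks where its signal exceeded percentile 95 of the 904 blank spots, and saturated above 32768. Letters a and b are also the dye orientation; deviations of same-letter arrays from their group means correlated at 0.48 to 0.82 over 15 pairs of groups (median 0.66), so the letter was tried as a replicate block. The members and the gene lists were chosen with earlier results of these data known. All members could be named, plus the neighbours PRY3, TIR2 and ATF2 and the genes most like the enzymes. Of each other list, up to 4 genes were to be named by size of change. The naming did not keep strictly to this. KES1, SAY1, YEH2, OSH6 and OSH3 were added after their values were seen. HRD3 and BTS1 were named although NSG2 and CDC43, of the same lists, changed more. Of the 21 genes listed for transport and turnover, 18 were found by symbol.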

Additional observations from a re-analysis of the deposited data

Results flagged for a closer look

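The rapamycin effect differed between strains, by the test of the difference itself, for the following members. Several of the calls against wild type were lost in fits that left out 1 array, as given above. Among them were ERG27 and ERG9 for Mot1-FRB, and ECM22, ERG6 and ERG9 for NCB2-FRB. The log2 difference between the Mot1-FRB effect and the wild-type effect was 0.91 for ERG28, 0.59 for ERG12, 0.56 for MVD1, 0.53 for ERG24, 0.47 for ERG26, 0.47 for ERG3, 0.46 for NCP1, 0.42 for ERG27 and 0.33 for ERG9.

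Between the NCB2-FRB effect and the wild-type effect it was 1.40 for ERG28, and in the mevalonate pathway 1.13 for ERG12, 1.12 for ERG20, 1.07 for ERG10, 0.65 for MVD1 and 0.40 for HMG1. Among the later enzymes it was 0.94 for ERG2, 0.92 for ERG24, 0.91 for ERG4, 0.88 for ERG3, 0.84 for ERG26, 0.75 for ERG5, 0.74 for ERG25, 0.65 for ERG1, 0.59 for ERG11, 0.59 for ERG27, 0.36 for ERG6 and 0.34 for ERG9. For the partners ERG29 and NCP1 it was 0.91 and 0.54, and for ARE2 it was 0.80. ECM22 at -0.45 and AUS1 at -0.55 were the 2 with a lower effect in NCB2-FRB.

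Between the tagged strains AUS1 differed by 0.76 (Mot1-FRB effect minus NCB2-FRB effect), a call lost in each of the 12 fits that left out 1 array; with the replicate block 15 members passed this test. All these values are from limma without the block, at an adjusted p under 0.05, and no explanation was tested.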

How the results depend on the processing

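Counts are members called in either direction. With the letter as a replicate block, the count was 27 in Mot1-FRB, 19 for the Mot1-FRB effect minus the wild-type effect, 15 for the Mot1-FRB effect minus the NCB2-FRB effect and 9 in untreated Mot1-FRB against wild type; this paired fit kept every call made without it. With print-tip loess the last pair of counts was 5 and 1. With the authors' deposited ratios 19 members differed between the Mot1-FRB and wild-type effects, 9 between the effects in the tagged strains and 7 between the untreated strains. With no background subtraction 0 differed between the tagged strains.

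Median centring in place of loess gave 0 calls in Mot1-FRB, 10 in NCB2-FRB and 0 in the 4 other comparisons that had calls. Centring on the external controls in place of loess gave 0 calls in all comparisons. The median SE over all probes was 0.203 with median centring and 0.529 with the external controls, against 0.0903 with loess.

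The next settings were chosen after seeing the data. With loess and then external control centring the counts were 0 (Mot1-FRB minus wild-type effect), 13 (NCB2-FRB minus wild-type effect), 0 (between the tagged strains) and 0 (untreated Mot1-FRB against wild type). Median centring with the replicate block gave 0 between the tagged strains and 1 in untreated Mot1-FRB. External control centring with the replicate block gave 5 for the Mot1-FRB minus wild-type effect and 2 between the tagged strains. The main fit made 81 calls of members over all comparisons. Median centring kept 10 of them alone and 76 with the block. External control centring kept 66 with the block, and 1 changed sign. Over all probes in Mot1-FRB, 1403 were higher and 977 lower with loess, against 376 and 131 with median centring and 858 and 1737 with external control centring and the block. In NCB2-FRB 1454 were higher and 1163 lower, against 484 and 212 with median centring. For the Mot1-FRB minus wild-type effect 811 were higher and 428 lower, against 1095 and 311 with median centring and the block, 473 and 926 with external control centring and the block, and 11 and 0 with median centring. For the NCB2-FRB minus wild-type effect the split was 927 to 572, against 24 to 3 with median centring, and for untreated Mot1-FRB against wild type 55 to 7, against 203 to 66 with the authors' deposited ratios. The median of the Mot1-FRB minus wild-type effect over all probes was 0.10 with median centring and -0.13 with the external controls.

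The IDI1 difference in NCB2-FRB was -0.090 with the authors' deposited ratios, and the ERG26 difference between the Mot1-FRB and wild-type effects was -0.046 with external control centring, with and without the block. The cause was not tested.

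Leaving out 1 array at a time gave 12 to 18 members in Mot1-FRB, 23 to 29 in NCB2-FRB, 0 to 0 in wild type, 4 to 9 for the Mot1-FRB and 16 to 22 for the NCB2-FRB effect minus the wild-type effect, 0 to 0 between the tagged strains, 0 to 2 in untreated Mot1-FRB and 0 to 0 in untreated NCB2-FRB against wild type. These fits had no replicate block, and each left 1 group with a single dye orientation. A slide or scan batch was not run as a block, because the headers used here name none. Leaving out dim probes changed no call among the members, but this setting could not remove any of them. A probe was left out only where no compared group had both its arrays above the blanks. All members were above the blanks on every array but that of rapamycin-treated wild-type culture a.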

Other observations

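Outside the sterol genes, the 10 genes whose log2 ratios followed the mean of the 22 enzymes most closely over the 12 arrays were CBS2, PST2, YJL107C, BMH1, YIL059C, MSA2, SMK1, ROD1, PLM2 and ESBP6, with Pearson correlations of 0.989 to 0.992. The arrays fall into treated tagged cultures and the rest, so these correlations describe a shared split and carry no test.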
